A study of Mus musculus with 24 samples.

Results

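Matricellular and adhesive matrix proteins were followed through 8 genes, Tnn, Tnc, Postn, Sparc, Thbs1, Thbs2, Fn1 and Ccn2 (also called Ctgf), in bulk RNA-seq of mouse osteoblasts differentiating in culture. The members were named by gene symbol, with earlier results of these data known. All 8 were found among the 54232 rows of the count table. Osteoblasts, the cells that build bone matrix, had been grown from the skull bones of several newborn mice pooled into each culture. The design has 4 groups of cultures of a high bone mass line (HBM) at days 0, 10, 15 and 21 of differentiation, and 4 groups of wild type (WT) cultures on the same days. Each group held 3 libraries, numbered as batches 18, 19 and 21, which made 24 libraries. The labels name neither the mutation of the HBM line nor the strain or sex of the mice. Each library is an average over mice and over every cell type left in the dish.

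Matricellular proteins are secreted into the extracellular matrix but work mainly as signals there: they bind collagen, integrins, growth factors and proteases, and they tune adhesion rather than carry load. Fibronectin is the adhesive scaffold on which much of that matrix is first laid down. In bone, periostin and the tenascins are known from the periosteum and from places of matrix formation, SPARC is the collagen-binding protein also called osteonectin, and thrombospondin 1 is known for activating latent TGF-beta. CCN2 is a standard target gene of TGF-beta and of the mechanosensitive factor YAP.

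The libraries held 28039095 to 46987734 counts, and the 8 members took 4.33 to 8.53% of them. In mm10, Tnn (ENSMUSG00000026725) lies at chr1:160085029-160153580 and Fn1 (ENSMUSG00000026193) at chr1:71585520-71653200, both on the minus strand. Tnc (ENSMUSG00000028364) lies at chr4:63959785-64047015, Sparc (ENSMUSG00000018593) at chr11:55394500-55423183 and Thbs2 (ENSMUSG00000023885) at chr17:14665500-14694235, also on the minus strand. Postn (ENSMUSG00000027750) at chr3:54361109-54391037, Thbs1 (ENSMUSG00000040152) at chr2:118111876-118127133 and Ccn2 (ENSMUSG00000019997) at chr10:24595442-24598683 are on the plus strand. Exons of Tnc, Thbs1, Fn1 and Ccn2 share 176, 208, 292 and 665 bases with genes on the opposite strand, which had at most 24, 17, 22 and 97 counts in any library.

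The stretches upstream of the start site are shown for Tnn, the member with the largest difference between the genotypes, and for Postn, the member with the largest rise over time. Both come from RefSeq in the build GRCm38.p6, end just before the first annotated exon base or the start site, and read 5′ to 3′ along the gene. The Tnn stretch is chr1:160153581-160153825 on the minus strand, with its match to the TEAD motif in capitals. The Postn stretch is chr3:54360857-54361106 on the plus strand, and none of the motifs searched matched in it.
Tnn: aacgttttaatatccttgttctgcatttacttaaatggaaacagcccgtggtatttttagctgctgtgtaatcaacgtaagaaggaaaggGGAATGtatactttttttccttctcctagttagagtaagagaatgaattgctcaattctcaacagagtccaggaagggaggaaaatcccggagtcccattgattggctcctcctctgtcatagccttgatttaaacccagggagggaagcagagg
Postn: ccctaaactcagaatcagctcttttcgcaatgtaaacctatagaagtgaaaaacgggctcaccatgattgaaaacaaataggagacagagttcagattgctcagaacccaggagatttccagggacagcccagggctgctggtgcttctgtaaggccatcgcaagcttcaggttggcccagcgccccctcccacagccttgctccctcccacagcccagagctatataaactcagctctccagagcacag

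Motifs were searched on both strands in the 250 bases before each RefSeq start. Of the 8 members, 5 had an entry: Tnn, Postn, Tnc, Sparc and Thbs2. The TEAD motif (CATTCC) matched once, in Tnn, 160 bases before the start, and 12.6% of 32851 windows of that length hold it. The SMAD box (GTCTG) matched at a second, more upstream start of Postn, at 1 of the 2 starts of Tnc and in Sparc, and at 66 and 43 bases before the start of Thbs2, against 42.2% of all windows. The RUNX motif (TGTGGT), the AP-1 motif (TGANTCA) and the CArG box matched in none of these windows and in 14.0%, 6.75% and 1.47% of all windows. These matches describe the letters of the windows. The windows of Tnn, of Sparc and of the Tnc start with a match overlap annotated exons.

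Levels between genes were compared as CPM (counts scaled to a common library size with edgeR's TMM factors) per kilobase of exon. At day 0 the lead was shared by Thbs1, Sparc and Fn1, whose ranges over cultures overlapped. They averaged 2730 ± 713, 2708 ± 485 and 2281 ± 504 CPM per kilobase in HBM cultures, against 2696 ± 1223, 2756 ± 345 and 2329 ± 950 in WT cultures (SD, n = 3 each). Thbs2 came next and Tnn last, at 15.9 ± 12.9 CPM per kilobase in HBM and 13.6 ± 2.63 in WT cultures (SD, n = 3 each).

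By day 21 the order had opened out. Sparc averaged 7893 ± 2282 CPM per kilobase in HBM cultures and 5747 ± 1874 in WT cultures, ahead of Thbs1 at 1764 ± 472 in HBM and 2115 ± 456 in WT and of Fn1 at 630.1 ± 59.0 in HBM and 501 ± 148 in WT (SD, n = 3 each). Postn, Tnc and Ccn2 lay between 116 and 200.8 CPM per kilobase on average in either genotype on that day, with overlapping ranges among neighbours. Tnn stayed last on every day, at 10.5 to 41.4 CPM per kilobase on average over the 8 groups.

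**Figure D1:**
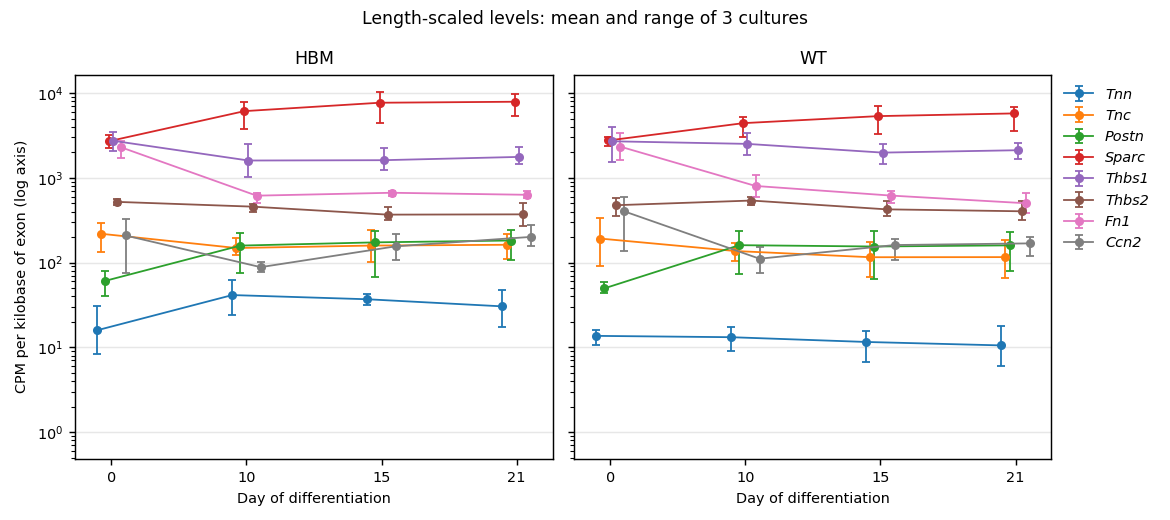
Length-scaled level of each member (CPM per kilobase of exon, log axis) by day of differentiation in HBM (left) and WT (right) cultures; points are means of 3 cultures and bars run from the lowest to the highest culture. Thbs1, Sparc and Fn1 start together at day 0, Sparc leads afterwards, and Tnn is lowest on every day.

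The first question of the design is how these genes move as osteoblasts mature. Over the first 10 days Fn1 fell in both genotypes, by 1.89 on the log2 scale in HBM and 1.54 in WT cultures. Over the same step a rise of Sparc passed the test in HBM cultures, and a rise of Postn and a fall of Ccn2 passed in WT cultures. Sparc was also higher in 3 of 3 WT cultures, Postn higher in 3 of 3 HBM cultures and Ccn2 lower in 2 of 3 HBM cultures. The HBM change less the WT change was log2 0.50 for Sparc, -0.31 for Postn and 0.61 for Ccn2, and none of these passed. Between days 10 and 21 no member passed the test in either genotype. In these bulk cultures, fewer cells of a type and less RNA per cell cannot be told apart.

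Fn1, the fibronectin scaffold gene, had 5960, 7834 and 7785 CPM at day 10 in the HBM cultures of batches 18, 19 and 21, against 20196, 28034 and 31741 CPM in the same batches at day 0. In WT cultures it had 6947, 8366 and 12770 CPM at day 10, against 22919, 18907 and 39825 CPM at day 0. Every day 10 culture lay below every day 0 culture of its genotype, as for 19.6% of all genes in HBM and 16.3% in WT cultures. The log2 change was -1.89 ± 0.31 in HBM and -1.54 ± 0.30 in WT cultures (SE), with adjusted p = 3.22e-04 in HBM and 0.00143 in WT by edgeR's quasi-likelihood test. From day 0 to day 21 the log2 change was -1.86 ± 0.31 in HBM (adjusted p = 2.23e-04, edgeR) and -2.22 ± 0.31 in WT cultures (5.1e-05). No single library carried these 4 results: leaving out each of the libraries compared in turn gave adjusted p of at most 0.0114. In a model of the WT day 0 and day 10 groups alone Fn1 did not pass, where 3.10% of genes did.

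Ccn2, the secreted growth factor modulator, had 216, 305 and 431 CPM at day 10 in WT cultures of batches 18, 19 and 21, against 388, 1706 and 1348 CPM at day 0. All 3 WT cultures went down, although the groups overlap through batch 18. The log2 change of -1.85 ± 0.51 passed the test (adjusted p = 0.0121, edgeR), but the adjusted p of Ccn2 was 0.0555 when batch 19 of WT day 0 was left out and 0.0588 when batch 18 of WT day 10 was. HBM cultures had 223, 241 and 294 CPM at day 10, against 213, 925 and 653 CPM at day 0, a log2 change of -1.24 ± 0.50 (adjusted p = 0.0725). Batch 18 had low Ccn2 at day 0 in both genotypes. At day 21 Ccn2 stood at 787, 453 and 483 CPM in HBM and 568, 340 and 537 CPM in WT cultures, above the day 10 value in all 6 cultures, with log2 differences of 1.19 ± 0.50 in HBM (adjusted p = 1, edgeR) and 0.60 ± 0.49 in WT (0.999) that did not pass the test.

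Postn, the periosteal protein that helps collagen cross-linking, had 1485, 2059 and 642 CPM at day 10 in WT cultures, against 400, 516 and 378 CPM at day 0. HBM cultures had 1951, 1528 and 660 CPM at day 10, against 537, 696 and 356 CPM at day 0. The groups did not overlap in WT and overlapped in HBM cultures, through batch 21. Of all genes, 17.3% were higher without overlap in WT cultures over this step. The log2 change was 1.38 ± 0.57 in HBM (adjusted p = 0.0786, edgeR) and 1.69 ± 0.57 in WT cultures (0.0359). With the culture as a block the adjusted p was 0.00116 in HBM and 4.5e-04 in WT. By day 21 the log2 change was 1.58 ± 0.57 in HBM and 1.69 ± 0.57 in WT, both past the test (adjusted p = 0.0379 and 0.0270, edgeR).

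Sparc, the collagen-binding glycoprotein osteonectin, had 25748, 29614 and 14153 CPM at day 10 in HBM cultures of batches 18, 19 and 21, against 8553, 10014 and 12202 CPM at day 0. WT cultures had 18924, 19813 and 11423 CPM at day 10, against 8960, 11424 and 10940.2 CPM at day 0. HBM groups did not overlap, WT groups did, and batch 21 had moved least in both. Of all genes, 18.9% were higher without overlap in HBM cultures over this step. The log2 change was 1.18 ± 0.39 in HBM (adjusted p = 0.0319, edgeR) and 0.68 ± 0.38 in WT (0.2). By day 21 it was 1.54 ± 0.39 in HBM (adjusted p = 0.00574, edgeR) and 1.06 ± 0.39 in WT (0.0379), both past the test.

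The calls for Postn and Sparc depended on single libraries. Left out 1 at a time, 5 of 6 libraries ended the Postn call from day 0 to day 10 in WT (adjusted p up to 0.144), the exception being the WT day 10 library of batch 21 (0.0209). At day 21 the Postn call in HBM cultures was kept only without HBM day 21 batch 21 (otherwise up to 0.126), and that in WT cultures only without WT day 0 batch 19 or WT day 21 batch 21 (otherwise up to 0.110). The Sparc call in WT cultures at day 21 was kept only without WT day 21 batch 21 (otherwise up to 0.112). In HBM cultures the Sparc call at day 10 was kept only without batch 21 of day 0 or of day 10 (otherwise up to 0.112), and that at day 21 held without any 1 library (at most 0.0256).

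The other members passed the test in no step over time. Thbs1, the thrombospondin that activates TGF-beta, changed from day 0 to day 10 by a log2 value of -0.77 ± 0.40 in HBM and -0.10 ± 0.40 in WT cultures (adjusted p = 0.162 and 0.870, edgeR), and with the culture as a block it passed in HBM (0.00462). Thbs2, the thrombospondin known for curbing blood vessel growth, had log2 changes to day 21 of -0.49 ± 0.25 in HBM and -0.24 ± 0.25 in WT (0.139 and 0.478), of which the HBM one passed with the culture as a block (0.0202). Tnc, the tenascin that loosens cell adhesion, ranged from 787 to 2292 CPM over the 12 HBM and 516 to 2596 CPM over the 12 WT libraries.

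Counted over members, 2 of 8 passed from day 0 to day 10 in HBM cultures, 1 up and 1 down, and 3 of 8 in WT cultures, 1 up and 2 down. Over all 16592 genes tested, 26.5% passed in HBM and 26.2% in WT. From day 0 to day 21, 3 of 8 members passed in each genotype, 2 up and 1 down. Of all genes, 34.9% passed in HBM (18.5% up and 16.4% down) and 37.7% in WT (18.3% up and 19.4% down). These shares of members are close to those of genes at large. With the culture as a block, 5 of 8 members passed from day 0 to day 10 in HBM cultures (38.2% of genes) and 5 of 8 from day 0 to day 21 (46.3%). In WT cultures the block left the count at 3 of 8 in both steps (38.5% and 48.7% of genes). From day 10 to day 21, 0 members and 0 genes passed in either genotype by edgeR, with 535 genes in HBM and 707 in WT at an unadjusted p under 0.05. By DESeq2, 3 genes in HBM and 18 in WT passed in that step, and with the culture as a block 16 in HBM (0.0964%) and 92 in WT (0.554%), again with no member.

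**Figure D2:**
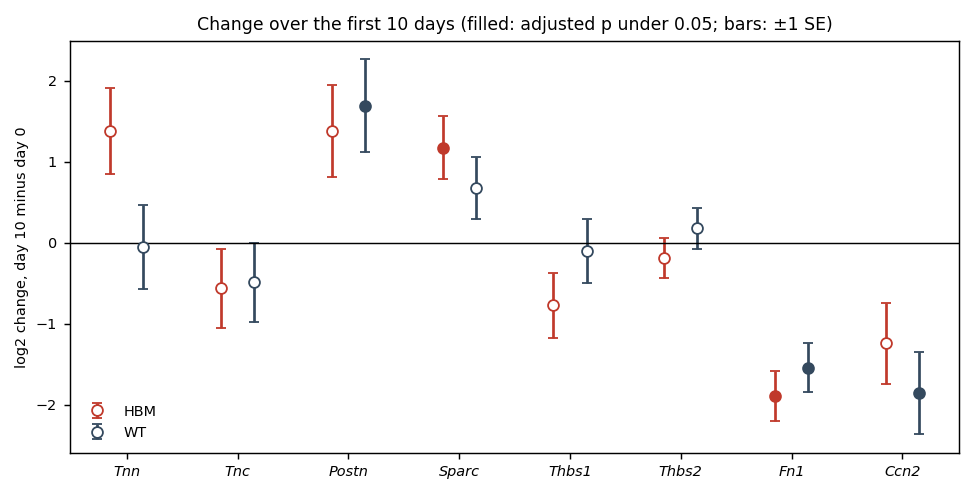
Log2 change from day 0 to day 10 of each member in HBM (red, left of each pair) and WT (blue-grey, right) cultures; points are edgeR estimates from 3 cultures per group and day, bars are ±1 SE, and filled points had an adjusted p under 0.05. Fn1 lies well below 0 in both genotypes, Postn and Sparc lie above 0, and Tnn lies above 0 in HBM alone, at 1.38 against -0.05 in WT.

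Other cell types moved over the same step. Summed CPM of 11 macrophage markers ran from 1575 to 11046 in HBM cultures at day 10, against 41.7 to 963 at day 0, and from 2716 to 8458 in WT cultures at day 10, against 53.4 to 1196 at day 0. The 4 tendon and ligament markers summed to 3981 to 4390 CPM in HBM cultures at day 10, against 1245 to 2495 at day 0, and to 4833 to 5367 CPM in WT cultures at day 10, against 1793 to 2913 at day 0. The 8 adipocyte markers summed to at most 49.8 CPM at day 0 and 785 CPM later. Of the osteoblast markers, 8 of 8 had counts in every library and higher values at day 10 than at day 0 in each genotype. Over this step 14.1% of all genes passed upward in HBM and 12.2% in WT cultures, beside 7 and 4 of these 8 markers. Their sum was 72542 to 167336 CPM in HBM cultures at day 10, against 39236 to 57901 at day 0, and 51015 to 93632 CPM in WT cultures at day 10, against 30480 to 52757 at day 0. The 8 chondrocyte markers summed to 553 to 1691 CPM in HBM cultures at day 10, against 861 to 8999 at day 0. In WT cultures they summed to 852 to 4762 CPM at day 10, against 1317 to 16434 at day 0. Most of the highest day 0 sums was Col2a1, at 8774 CPM in HBM and 15862 CPM in WT cultures. By gene, 5 of the 8 had higher and 3 lower values at day 10 in each genotype. Of these, 2 passed upward in HBM and 1 in WT cultures, and 0 passed downward. The 6 endothelial markers summed to at most 7.77 CPM and the 6 muscle markers to at most 14.8 CPM. The part of these markers in the changes of the members was not tested.

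The second question is whether HBM cultures differ from WT cultures on the same day. The member that stood out by size was Tnn (tenascin-W), a tenascin known from developing bone and periosteum. Sparc was also higher and Thbs1 lower in HBM in every same-batch pair from day 10 on. No member passed edgeR's test on any day: 0 of 8 members and 0% of 16592 genes were called on each day, with 701, 476, 347 and 356 genes at an unadjusted p under 0.05 on days 0, 10, 15 and 21. The main model carries the difference between batches as error, so values inside each batch are given beside it.

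Tnn had 215, 367 and 140.2 CPM in the HBM cultures of batches 18, 19 and 21 at day 10, against 75.5, 102 and 52.0 CPM in WT cultures. At day 15 it had 183, 216 and 245 CPM in HBM, against 90.6, 72.4 and 38.8 CPM in WT cultures. On these 2 days every HBM culture lay above every WT culture, which 5.98% and 3.87% of genes also showed. At day 21 the values were 152, 101 and 278 CPM in HBM and 104, 35.3 and 44.8 CPM in WT cultures, and the groups overlapped through HBM batch 19 and WT batch 18. At day 0 they were 49.4, 179 and 48.7 CPM in HBM and 62.7, 92.8 and 82.6 CPM in WT cultures, higher in HBM in 1 pair of 3.

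From day 10 to day 21, Tnn was higher in HBM in 9 of 9 same-batch pairs, by a log2 difference of 0.55 to 2.66. Of all genes, 6.16% were higher in HBM in 9 of 9 pairs. The days of a culture are not independent samples. The log2 difference was 1.65 ± 0.53, 1.67 ± 0.53 and 1.53 ± 0.53 on days 10, 15 and 21 (SE, unadjusted p = 0.00606, 0.00556 and 0.00980, adjusted p = 1 on each day, edgeR). With the batch as a block within each day, adjusted p was 0.0736, 0.0798 and 0.117, where 1.31%, 0.331% and 0.241% of genes passed. With 1 batch term shared by all days, adjusted p of Tnn was 0.399, 0.546 and 0.565, and 0 genes passed. At day 0 the log2 difference was 0.22 ± 0.52 (adjusted p = 0.984).

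With its 4 days added up into 1 count per culture, Tnn had a log2 difference of 1.38 ± 0.19, or 2.60-fold (unadjusted p = 3.32e-04, adjusted p = 1, edgeR, 18387 genes). In that comparison 0 genes passed by edgeR, with 555 at an unadjusted p under 0.05. The batch block gave adjusted p = 0.0629 for Tnn. DESeq2 called Tnn (adjusted p = 4.87e-06) among 25 genes, or 0.136% of those tested. Leaving out each culture in turn kept the log2 difference between 1.23 and 1.5. Whether the difference widened from day 0 to day 10 was tested in itself: the change of 1.43 ± 0.74 did not pass (adjusted p = 1), and neither did the test over all days with 3 degrees of freedom (unadjusted p = 0.184, adjusted p = 1).

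The later Tnn values moved with batches 18 and 21. Without both genotypes of batch 21 the log2 difference was 1.71 at day 10, 1.30 at day 15 and 0.89 at day 21. Without batch 18 it was 1.71, 2.05 and 2.23, and without batch 19 it was 1.48, 1.74 and 1.53. Within HBM cultures, Tnn was above its day 0 level at day 10 in 3 of 3 cultures (log2 1.38 ± 0.53, adjusted p = 0.0614, edgeR, and 0.0311 with the culture as a block). In WT cultures the same step was -0.05 ± 0.52 (adjusted p = 0.951).

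**Figure D3:**
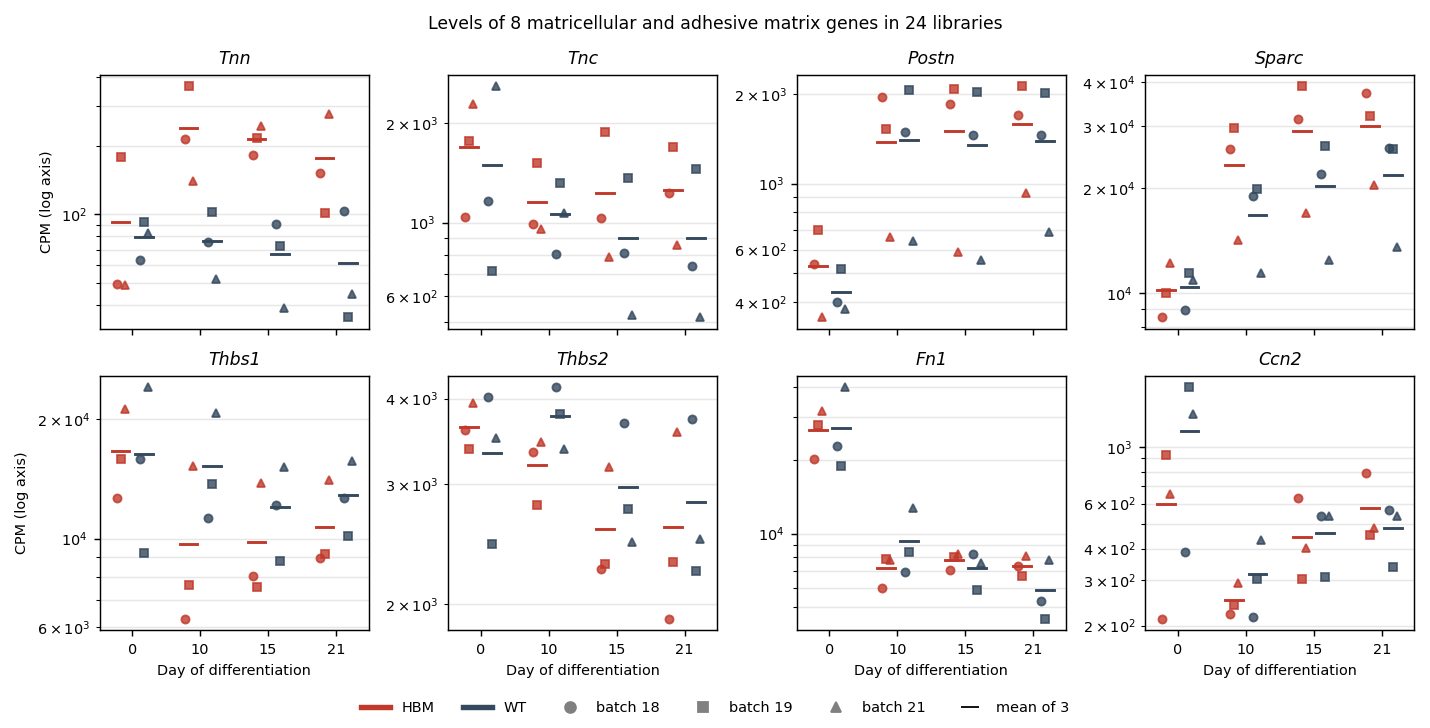
CPM (log axis) of each of the 8 members in all 24 libraries by day of differentiation, with HBM cultures in red left of WT cultures in blue-grey; marker shape gives the batch and short lines the mean of 3 cultures. The Tnn panel shows HBM cultures at 140.2 to 367 CPM above WT cultures at 52.0 to 102 CPM at day 10, and the Postn panel shows batch 21 below the other batches from day 10 on.

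Tnc, a tenascin like Tnn, had a higher mean level per kilobase than Tnn in every group, and its HBM and WT cultures overlapped on every day. It was higher in HBM in 8 of 9 same-batch pairs from day 10 to day 21, with log2 differences of 0.12 ± 0.49, 0.46 ± 0.49 and 0.48 ± 0.49 on the 3 days (adjusted p = 1 each, edgeR). The log2 ratio of Tnn to Tnc inside a library, after scaling for length, does not depend on library scaling. It was -1.92 ± 0.38 in HBM and -3.40 ± 0.49 in WT cultures at day 10 (SD, n = 3 each), with no overlap. At day 15 it was -2.02 ± 0.72 in HBM and -3.30 ± 0.54 in WT cultures, again with no overlap. Both gave p = 0.1 by a two-sided exact permutation test, the smallest that 3 against 3 cultures allow, and adjusted p = 0.4 over 8 such tests. At days 0 and 21 the ratios overlapped (exact p = 0.7 and 0.5), and the ratio of Thbs2 to Thbs1 overlapped on all 4 days (exact p = 0.5 to 0.9).

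Sparc had 31370.1, 38973 and 16969 CPM in HBM cultures of batches 18, 19 and 21 at day 15, against 21937, 26354 and 12420 CPM in WT cultures. The groups overlapped on each day, and batch 21 had the lowest value of its genotype from day 10 on. Sparc was higher in HBM in 9 of 9 same-batch pairs from day 10 to day 21, by log2 0.31 to 0.59. The log2 difference was 0.47 ± 0.38, 0.52 ± 0.38 and 0.46 ± 0.38 on days 10, 15 and 21 (adjusted p = 1 each, edgeR), with adjusted p = 0.108, 0.0919 and 0.117 under the within-day batch block and 0.788, 0.889 and 0.843 with 1 batch term for all days. At day 0 it was -0.03 ± 0.38.

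Thbs1 had 6290.25, 7626 and 15215 CPM in HBM cultures at day 10, against 11298, 13724 and 20746 CPM in WT cultures. It was lower in HBM in 9 of 9 same-batch pairs from day 10 to day 21, by log2 differences from -0.85 to -0.13. Of all genes, 6.73% were lower in 9 of 9 pairs. The log2 difference was -0.65 ± 0.40, -0.30 ± 0.40 and -0.26 ± 0.40 on days 10, 15 and 21 (adjusted p = 1 each, edgeR), the within-day block gave 0.107, 0.58 and 0.583, and 1 batch term for all days gave 0.374, 0.967 and 0.913. Thbs2 was higher in HBM in 4 of 9 pairs and lower in 5.

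Ccn2 had 213, 925 and 653 CPM at day 0 in HBM cultures of batches 18, 19 and 21, against 388, 1706 and 1348 CPM in WT cultures. It was lower in HBM in 3 of 3 pairs, by log2 differences between -1.05 and -0.87, while the groups as a whole overlapped. Of all genes, 14.8% were lower in 3 of 3 pairs on that day. The log2 difference of -0.94 ± 0.49 did not pass edgeR's test (adjusted p = 0.901), and passed with the within-day block (0.0469), where 0.127% of genes did. With 1 batch term for all days Ccn2 did not pass (0.566), and 0 genes did. From day 10 on Ccn2 was higher in HBM in 4 of 9 pairs.

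Fn1 was higher in HBM in 5 of 9 same-batch pairs from day 10 to day 21, and Postn in 8 of 9. Fn1 had log2 differences of -0.03 ± 0.30, -0.38 ± 0.30, 0.11 ± 0.30 and 0.33 ± 0.30 on days 0, 10, 15 and 21, and Postn had 0.30 ± 0.56, -0.02 ± 0.56, 0.16 ± 0.56 and 0.19 ± 0.56 (adjusted p at least 0.977 for each, edgeR).

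**Figure D4:**
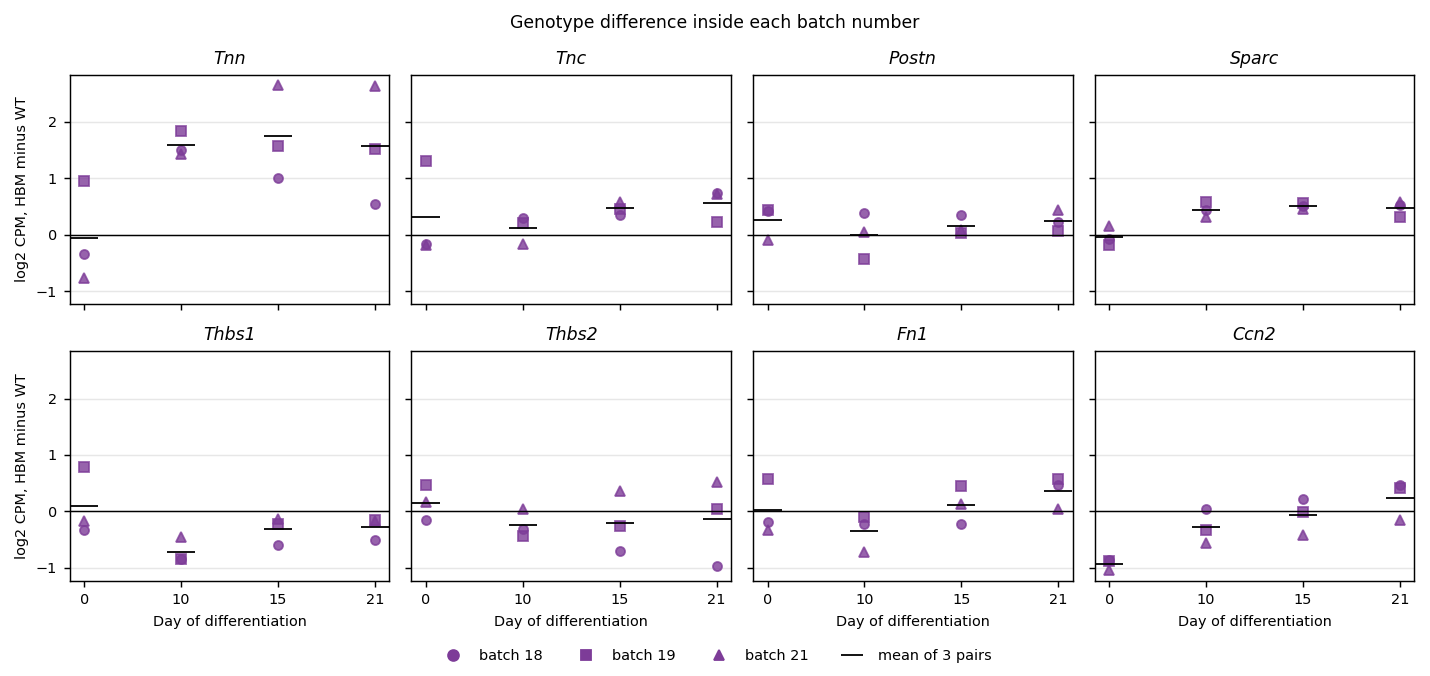
Log2 CPM difference, HBM minus WT, inside each batch number (marker shape) for each member by day of differentiation; black dashes are means of the 3 pairs. Tnn and Sparc lie above 0 and Thbs1 below 0 in 9 of 9 pairs from day 10 on, and Ccn2 lies below 0 in 3 of 3 pairs at day 0.

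Of the osteoblast markers, 8 of 8 had higher values in HBM cultures on days 10, 15 and 21, with 0 passing edgeR's test. At day 0, 4 of the 8 were higher and 4 lower in HBM. The sum of the 8 at day 10 was 129781, 167336 and 72542 CPM in HBM cultures of batches 18, 19 and 21. In WT cultures it was 81278, 93632 and 51015 CPM. This sum was higher in HBM in 3 of 3 pairs on every day, and it was mostly Col1a1 and Col1a2. These 2 genes had 70331 and 57016 CPM in HBM batch 18 at day 10. Chondrocyte marker sums, and tendon and ligament marker sums, were lower in HBM in every pair at days 0, 10 and 15. By gene, 7, 7 and 6 of the 8 chondrocyte markers were lower in HBM on these days. Of the 4 tendon and ligament markers, 1 was higher and 3 lower in HBM at day 0. At days 10 and 15, 2 of them were higher and 2 lower. Macrophage and adipocyte marker sums were lower in HBM in 3 of 3 pairs at day 21. The part of these markers in the Tnn, Sparc and Thbs1 differences was not tested. Chondrocyte markers summed to 16434 CPM in batch 19 of WT at day 0, against 1317 and 4107 CPM in the other WT libraries of that day. That library had the lowest Thbs1, Thbs2, Fn1 and Tnc of the 3. In HBM cultures at day 0 batch 19 also had the highest sum, at 8999 CPM against 861 and 1818 CPM. Its Thbs2 was the lowest of the 3, while its Thbs1, Fn1 and Tnc lay between those of batches 18 and 21. A link was not tested.

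The largest spread in several members lay between batches. On days 10 to 21 Postn ran from 552 to 931 CPM in the 6 libraries of batch 21, against 1452 to 1951 CPM in batch 18 and 1528 to 2125 CPM in batch 19. Thbs1 ran the other way, from 13830 to 20746 CPM in batch 21, against 6290.25 to 12648 CPM in batch 18 and 7538 to 13724 CPM in batch 19. Sparc ran from 11423 to 20412 CPM in batch 21, against 18924 to 37333 CPM in batch 18 and 19813 to 38973 CPM in batch 19. Batch 21 also had the lowest osteoblast marker sums and the highest macrophage marker sums on each of these days in both genotypes. Its Xist level was at most 0.0328 CPM, against 18.0 to 528 CPM in the other batches. Which of these traits of batch 21 goes with its low Postn and Sparc was not tested. Within batch 19, Xist ran from 177 to 246 CPM in HBM and from 18.0 to 41.7 CPM in WT cultures. The part of this Xist difference in the genotype differences of that batch was not tested.

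Across the 24 libraries Postn and Sparc ran together (Pearson r of log2 CPM 0.89), and Fn1 and Thbs1 ran against Postn (-0.78 and -0.77). These correlations are descriptions: the libraries share cultures, days and batches. By the same measure over 14303 protein-coding genes, the gene most like Sparc was Col1a2 (0.97), which encodes a chain of type I collagen, followed by Fabp3 and Rab27b. The genes most like Ccn2 were F3 (0.83), Sdc4 (0.79) and Srf (0.77), which encode tissue factor, syndecan 4 and serum response factor. For Tnn they were Blzf1 (0.82), Ergic2 (0.80) and Golga2 (0.80), and for Tnc they were Smad1, Cog3 and Copa (0.83 to 0.84). Postn had Serinc5, Slc44a1 and Prickle1 (0.95 each), Thbs1 had Mpp5 (0.94), Kif3a and Mtf1 (0.91 each), Thbs2 had Zfp512b (0.82), Man1a2 and Dhx57 (0.78 and 0.77), and Fn1 had Uba1, Hsp90aa1 and Etv6 (0.95 to 0.96).

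A list of 27 relatives of the members held other tenascins, thrombospondins, CCN proteins, fibulins, SPARC-like proteins and further matrix proteins. From day 0 to day 10, 8 passed upward and 2 downward in HBM cultures, and 7 upward and 3 downward in WT cultures. By value 16 were higher and 11 lower in each genotype. Over all genes 14.1% passed upward and 12.4% downward in HBM, and 12.2% upward and 14.1% downward in WT. The median log2 change of the relatives was 0.64 in HBM and 0.46 in WT, beside 0.00 and -0.02 over all genes. Npnt, which encodes the integrin ligand nephronectin, averaged 484 ± 118 CPM at day 10 in HBM cultures, against 80.9 ± 36.2 at day 0, and 427 ± 154 CPM in WT cultures, against 66.5 ± 36.2 (SD, n = 3 each). Its log2 change was 2.58 in HBM and 2.68 in WT (adjusted p = 1.68e-04 and 1.32e-04, edgeR). Smoc1, a relative of Sparc, changed by log2 3.11 in HBM and 2.95 in WT (adjusted p = 1.47e-04 and 1.81e-04, edgeR).

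Of 21 receptors, 20 passed the filter on low counts. From day 0 to day 10, 3 passed upward and 5 downward in HBM, and 5 upward and 4 downward in WT cultures. The median log2 changes were 0.01 and -0.08, and by value 10 were higher and 10 lower in each genotype. Over all genes 14.1% passed upward and 12.4% downward in HBM, and 12.2% upward and 14.1% downward in WT. Itga5, the alpha subunit of the fibronectin receptor, changed by log2 -0.92 in HBM and -0.88 in WT (adjusted p = 0.00153 and 0.00213, edgeR). Itga3, a laminin receptor subunit, changed by log2 -2.10 in HBM and -1.75 in WT (adjusted p = 8.56e-05 and 3.17e-04, edgeR).

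The 20 genes known to respond to TGF-beta, YAP or SRF either passed downward or did not pass the test over this step. In HBM cultures 8 passed downward and 0 upward, with a median log2 change of -0.74. In WT cultures 9 passed downward and 0 upward, with a median of -0.60. By value 17 of the 20 were lower in each genotype. Over all genes 12.4% passed downward in HBM and 14.1% in WT. Ajuba, a LIM protein of the YAP pathway, changed by log2 -0.95 in HBM and -0.87 in WT (adjusted p = 9.31e-05 and 1.81e-04, edgeR). The receptor kinase Axl changed by log2 -1.33 in HBM and -0.96 in WT (adjusted p = 0.00144 and 0.0117, edgeR). Between the genotypes 0 genes of these 3 lists passed on any day or over all days by edgeR, as for the members. In the summed counts the smallest unadjusted p among receptors was that of Itga1, a collagen receptor subunit, at 9.03e-04, with a log2 difference of -0.71 (HBM minus WT, adjusted p = 1).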

How the data were processed

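Polyadenylated RNA of 24 libraries was measured, per the labels. The deposited table holds counts of reads per gene, which the authors made with cutadapt 3.4, STAR 2.7.8a and featureCounts of Subread 2.0.1 on mm10, per the submitters' processing notes. The sources used here give neither the strand setting nor the annotation release, so reads of overlapping opposite-strand genes could not be separated. Symbols and exon lengths came from GENCODE M21, which matched 54164 of 54232 rows, and the other 68 held at most 0.00337% of counts. Tests used edgeR 4.0.16 in R 4.3.3 (TMM factors 0.866 to 1.11, filter on low counts, 16592 genes in a model of 8 groups, quasi-likelihood test, Benjamini-Hochberg adjustment over all genes, threshold 0.05), with DESeq2 1.42.0 as an alternative. The procedure was tested on simulated data. In the simulated step from day 0 to day 10 the replicates varied less than in these data, so it does not give the power here. A standard error is the log2 value divided by the root of the F statistic.

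Replicates are separate pooled cultures, per the labels. The batch numbers pair the genotypes, and the labels call the number a batch. On each day same-batch libraries deviated together (correlations 0.542 to 0.815 in 12 of 12 pairs, other pairs at most 0.127). Deviations were taken from the mean of each group of 3. Positive same-batch values therefore lower those of other pairs, which are no separate evidence. A batch number was taken to mark 1 culture through all days, which the labels do not state. Variation between replicates (biological coefficient, all genes) came to 0.327 unblocked, 0.131 blocked within days and 0.208 blocked by culture. Named genes are the 8 members, the 3 protein-coding genes most correlated with each, and the 2 genes of each list with the smallest p, of which 1 is not reported here. Members and lists were chosen with earlier results of these data known. Counts carry no molecular identifiers. Depth alone does not give the error between cultures, which was estimated from the replicates.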

Additional observations from a re-analysis of the deposited data

Results flagged for a closer look

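Fn1 was lower in HBM cultures in 3 of 3 same-batch pairs at day 10 and higher in 3 of 3 pairs at day 21, and the log2 difference, HBM minus WT, at day 21 less that at day 10 was 0.710. Of all 16592 genes, 2.21% had their 3 pairs on opposite sides on these days. The change between these 2 days was not tested on its own. The test of a change of the genotype difference over all days gave Fn1 an unadjusted p of 0.41 and an adjusted p of 1 (edgeR). HBM cultures had a log2 difference, day 21 minus day 10, of 0.03 ± 0.30 and WT cultures one of -0.68 ± 0.30 (SE).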

How the results depend on the processing

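The alternatives changed how many of 8 members passed, and no called value changed sign. HBM against WT gave 0 members on each day, but 1 (Ccn2) at day 0 with the within-day replicate block (0 with 1 batch term for all days), and 1 (Tnn) by DESeq2 in the counts summed over all days, where edgeR gave 0. From day 0 to day 10 the count was 2 in HBM, 5 by DESeq2 and 5 with the culture as replicate block, 1 with these groups alone, and 1 to 5 with each library left out in turn. In WT it was 3, 0 with these groups alone, and 1 to 3 with a library left out. From day 0 to day 21 it was 3 in HBM, 5 with the culture block and 2 to 4 with a library left out, and in WT it was 3, and 1 to 3 with a library left out. The cause was not tested, other than that models of these groups alone have fewer samples. The block changed no other count of members by over 1.5 times. Over all genes, models of these groups alone called 2087 genes in HBM and 472 in WT from day 0 to day 10, against 4404 in HBM and 4349 in WT in the model of 8 groups. From day 0 to day 21 they called 3723 genes in HBM and 2048 in WT, against 5796 in HBM and 6262 in WT. The within-day block called 21, 217, 55 and 40 genes between the genotypes on days 0, 10, 15 and 21, against 0 without a block and 0 with 1 batch term for all days. Of the alternatives for single values, 1447 stayed on their side of the threshold, 93 of them with a change of sign where neither value was called, 30 lost a call and 19 gained one. Leaving out both genotypes of a batch was chosen after seeing the data. With 3 cultures per group, differences below the spread between batches could not be detected without the block.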
